A study of Homo sapiens with 36 samples.

Results

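The 8 genes described here encode the subunits of the hypoxia-inducible factors (HIF), their main coactivators and a protein that competes for these coactivators. They were chosen by name. The rule used no measured value, but the choice was made with earlier results of these data known. They are HIF1A, EPAS1, HIF3A, ARNT, ARNT2, CITED2, EP300 and CREBBP, and all 8 were found among the 60591 genes of the mRNA count table. The data were 18 mRNA libraries of 2 human colorectal cancer cell lines, in 6 groups of 3 replicates. Caco-2 cells were first left to differentiate over 21 days (dCaco-2), which makes them resemble enterocytes, and HT-29 cells had not, so cell line and culture state cannot be told apart. In each line, control cells received 0.5 µl of DMSO per ml, a second group received CoCl2 at 300 µM from a stock in water, and the other received the oxyquinoline derivative OD at 5 µM in the same volume of DMSO. Both agents were given for 24 h. The labels name no DMSO for the CoCl2 cells, whereas the methods of the study add it to their medium, so the sources differ on whether CoCl2 was compared with control and OD at equal DMSO. The methods describe the replicates as biological, but they cover Caco-2 cells only and do not name HT-29. What they state on DMSO, replicates and library kit is thus not stated for HT-29. The p-values measure the spread between these libraries.

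HIF is a dimer of an oxygen-regulated alpha subunit and a stable beta subunit. With oxygen, prolyl hydroxylases mark the alpha subunits HIF-1α (HIF1A) and HIF-2α (EPAS1) for VHL-dependent degradation, and cobalt ions and iron-binding oxyquinolines block these enzymes. The alpha subunits are thus controlled mainly as proteins, whereas the values here are mRNA levels. HIF3A encodes a further alpha subunit, some isoforms of which inhibit the others. ARNT and ARNT2 encode beta subunits. EP300 and CREBBP encode the acetyltransferases p300 and CBP, which the alpha subunits recruit, and CITED2 encodes a small protein that competes with HIF-1α for the same domain of p300 and CBP.

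The genes lie on different chromosomes. In GENCODE annotation of GRCh38, HIF1A is at chr14:61695513-61748259 on the plus strand, EPAS1 at chr2:46293667-46386697 (plus), HIF3A at chr19:46297042-46343433 (plus), ARNT at chr1:150809713-150876708 (minus), ARNT2 at chr15:80404350-80597933 (plus), CITED2 at chr6:139371807-139374648 (minus), EP300 at chr22:41092592-41180077 (plus) and CREBBP at chr16:3725054-3880713 (minus). RefSeq promoter sequences (GRCh38.p14) matched 7 of the 8 genes, all but ARNT2. The 250 bases before the outermost RefSeq start are shown for CITED2 and HIF3A, with the highest and lowest log2 fold change in Caco-2. The same bases are shown for the alpha subunits HIF1A and EPAS1. They run 5′ to 3′ on the strand of the gene, with ACGTG or GCGTG, the core of the HIF response element, in capitals on either strand. CITED2 is chr6:139374649-139374898 (minus), HIF3A is chr19:46296792-46297041 (plus), HIF1A is chr14:61695263-61695512 (plus) and EPAS1 is chr2:46297157-46297406 (plus). The EPAS1 stretch precedes its RefSeq start but lies inside the GENCODE gene, which begins at 46293667.
CITED2: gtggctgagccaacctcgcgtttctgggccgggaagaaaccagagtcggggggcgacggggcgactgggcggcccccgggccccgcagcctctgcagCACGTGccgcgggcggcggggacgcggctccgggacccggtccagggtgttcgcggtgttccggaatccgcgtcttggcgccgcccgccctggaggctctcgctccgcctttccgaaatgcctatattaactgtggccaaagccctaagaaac
HIF3A: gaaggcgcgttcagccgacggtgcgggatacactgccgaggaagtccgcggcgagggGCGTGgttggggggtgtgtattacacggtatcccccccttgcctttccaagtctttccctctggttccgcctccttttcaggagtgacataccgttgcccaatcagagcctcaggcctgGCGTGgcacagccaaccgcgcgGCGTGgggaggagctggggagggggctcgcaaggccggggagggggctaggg
HIF1A: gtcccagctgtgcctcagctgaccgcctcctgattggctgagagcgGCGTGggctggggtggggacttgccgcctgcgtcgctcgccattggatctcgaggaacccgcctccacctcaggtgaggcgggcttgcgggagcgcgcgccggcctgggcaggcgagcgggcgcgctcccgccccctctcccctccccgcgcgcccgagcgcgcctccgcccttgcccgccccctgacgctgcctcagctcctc
EPAS1: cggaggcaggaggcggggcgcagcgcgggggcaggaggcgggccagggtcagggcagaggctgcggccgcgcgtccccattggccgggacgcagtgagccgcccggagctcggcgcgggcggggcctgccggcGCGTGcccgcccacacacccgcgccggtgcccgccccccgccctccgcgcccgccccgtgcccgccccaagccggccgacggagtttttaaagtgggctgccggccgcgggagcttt
In the window of 300 bases around the outermost start, CITED2 held 2 matches to ACGTG, which overlap because CACGTG reads the same on both strands. HIF3A and CREBBP held 3 matches each to GCGTG, HIF1A and EPAS1 held 1 each, and ARNT and EP300 held 0. Of 35116 promoters of the same length, 21.4% held ACGTG, 36.5% held GCGTG and 48.4% held either, so a match is common and describes the letters alone.

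The libraries held 12925719 to 22332639 counts. Values are CPM, a read count divided by the size of its library, which was scaled within a line by TMM (trimmed mean of M values). The mean TMM factor was 1.116 in control, 0.8935 in CoCl2 and 1.003 in OD libraries of Caco-2, and 1.195, 0.7702 and 1.087 in HT-29, so the choice of scaling moves with treatment. Using library size alone shifted the median over all genes on the log2 scale, in Caco-2 by -0.321 (CoCl2) and -0.153 (OD) and in HT-29 by -0.633 and -0.136. The summed level of 6 epithelial markers was 4645 to 4804 CPM in control, 7196 to 7974 in CoCl2 and 6138 to 6535 in OD libraries of Caco-2. In HT-29 it was 4804 to 4837, 5846 to 6179 and 5693 to 6128 CPM. The summed level of 6 enterocyte markers was 294 to 372 CPM in control, 187 to 222 in CoCl2 and 259 to 340 in OD libraries of Caco-2, and 60.9 to 69.5 CPM in all HT-29 libraries. Of the enterocyte markers, ALPI was at 15.4 to 24.3 CPM in Caco-2 and at most 0.165 CPM in HT-29, while SLC5A1 was the higher in HT-29 and FABP2 reached at most 1.81 CPM in either. Of 3 goblet cell markers, the sum was 36.1 to 46.0 CPM in control, 21.7 to 23.9 in CoCl2 and 26.2 to 29.2 in OD libraries of Caco-2, and 32.1 to 36.4, 15.4 to 20.8 and 17.9 to 21.5 in HT-29. Of 3 endothelial markers it was 8.38 to 12.5, 2.16 to 2.91 and 5.53 to 6.52 CPM in Caco-2 and at most 2.32 in HT-29, with CDH5 at 0 to 3 counts. PECAM1 had 28 to 172 counts in Caco-2 and 3 to 35 in HT-29, and VWF had 1 to 17 and 0 to 4. Of 4 fibroblast markers it was 27.1 to 30.0, 17.9 to 21.4 and 20.6 to 26.4 CPM in Caco-2 and 3.23 to 3.68, 3.06 to 3.80 and 6.68 to 7.88 in HT-29, with COL1A2 and DCN at 0 to 3 counts. COL1A1 had 202 to 405 counts in Caco-2 and 23 to 116 in HT-29, and LUM had 32 to 74 and 11 to 61. Summed leukocyte markers reached at most 1.08 CPM. The part of these markers in the results below was not tested.

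HIF1A mRNA rose with both agents in HT-29, and in Caco-2 with CoCl2 under TMM scaling. In HT-29, the control libraries stood at 91.5, 91.4 and 94.7 CPM, CoCl2 at 238.7, 255.0 and 241.6 CPM and OD at 150.5, 138.6 and 147.8 CPM, and no 2 groups overlapped. The log2 fold change was 1.40 with CoCl2 (SE 0.05, edgeR FDR 1.25e-19) and 0.65 with OD (SE 0.05, edgeR FDR 5.90e-12). With library size alone the CoCl2 value was 0.77. In Caco-2, the controls stood at 86.3, 85.5 and 95.7 CPM, CoCl2 at 92.0, 122.7 and 136.6 CPM and OD at 88.6, 98.7 and 92.6 CPM. The CoCl2 libraries were thus spread widely, and 1 of them, replicate 1, lay among the controls. This replicate also differed more from its group over the genes as a whole. Its chi-square per degree of freedom was 8.79 against replicate 2 and 10.7 against replicate 3, and 3.42 between those. The log2 fold change with CoCl2 was 0.40 (SE 0.10, edgeR FDR 0.00147), but 0.08 with library size alone (edgeR FDR 0.530). Leaving out 1 library at a time, it ranged from 0.27 to 0.55. With OD it was 0.07 (95% interval -0.14 to 0.28, edgeR FDR 0.609), and it turned to -0.09 with library size alone.

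Antisense genes overlap HIF1A and other members. The span of HIF1A-AS3, on the other strand and with its introns included, covers 40962 bases of HIF1A. That span holds 4439 bases of HIF1A exons, and how many of these lie in HIF1A-AS3 exons was not computed. The methods of the study, which do not name HT-29, give a stranded library kit, but whether the counting used strand was not stated. HIF1A-AS3 had 5, 3 and 1 counts in Caco-2 controls, 22, 31 and 35 with CoCl2 and 48, 30 and 46 with OD. In HT-29 it had 2, 3 and 9 counts in controls, 43, 37 and 32 with CoCl2 and 11, 4 and 6 with OD. Its log2 fold change passed in 3 of these 4 comparisons (3.31, 3.77 and 3.56) and not with OD in HT-29 (0.70). At most 48 counts a library stood against at least 1104 for HIF1A. The span of another antisense gene covers 2842 bases of CITED2 and 2563 of its exon bases. Antisense spans hold 4429 and 3775 exon bases of EP300 and 2096 of HIF3A. Of these, only EP300-AS1 (3775 bases) was in the count table, at 0 to 5 counts. The part of antisense reads in the values of the members was not tested.

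EPAS1 mRNA rose with both agents in both lines. In Caco-2 it stood at 132.7, 126.2 and 118.3 CPM in controls, 181.8, 181.2 and 189.4 CPM with CoCl2 and 187.5, 187.4 and 197.1 CPM with OD. In HT-29 it stood at 53.4, 56.9 and 55.4 CPM in controls, 90.5, 94.9 and 93.8 CPM with CoCl2 and 97.0, 92.5 and 96.8 CPM with OD. Every treated library lay above every control of its line, and the CoCl2 and OD libraries overlapped. In Caco-2 the log2 fold change was 0.55 with CoCl2 (SE 0.07, edgeR FDR 3.45e-07) and 0.60 with OD (SE 0.07, edgeR FDR 2.02e-07). The HT-29 values were 0.75 (SE 0.05, edgeR FDR 1.62e-13) and 0.79 (SE 0.05, edgeR FDR 1.11e-13). With library size alone the rise in Caco-2 was 0.23 with CoCl2 and 0.45 with OD, and the HT-29 rise was 0.12 and 0.65.

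HIF3A mRNA fell with both agents in Caco-2 and was at or near 0 in HT-29. Caco-2 controls stood at 19.8, 18.3 and 19.9 CPM, CoCl2 libraries at 6.3, 5.7 and 4.4 CPM and OD libraries at 7.1, 8.3 and 9.2 CPM. The groups did not overlap, and the log2 fold change was -1.84 with CoCl2 (SE 0.15, edgeR FDR 1.07e-10) and -1.24 with OD (SE 0.14, edgeR FDR 8.35e-08). On the log2(RPKM + 1) scale of the deposited table, which understates the change of low genes, limma gave -1.03 and -0.77. In HT-29, 8 of 9 libraries had 0 counts and 1 CoCl2 library had 1 count. A count of 0 allows up to 3 counts, or 0.134 to 0.232 CPM over the libraries by unscaled library size, for counting error only. With TMM scaling over all 18 libraries, the largest floor of the HT-29 controls was 0.2004 CPM, and the mean of Caco-2 controls was 19.0 CPM. Against that floor, HIF3A was at least 94.9-fold lower in HT-29 controls than in Caco-2 controls. HIF3A had no value in the HT-29 comparisons, and its fitted line differences rest on libraries at 0 and are not given.

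The beta subunit ARNT did not pass in any of the 4 comparisons with control. It stood at 88.4, 83.6 and 81.0 CPM in Caco-2 controls, 81.4, 78.4 and 82.4 CPM with CoCl2 and 91.0, 86.2 and 81.5 CPM with OD. In HT-29 it stood at 48.1, 47.2 and 45.1 CPM in controls, 45.9, 44.4 and 44.4 CPM with CoCl2 and 50.3, 50.0 and 49.4 CPM with OD. Treated libraries overlapped the controls of their line except that all OD libraries of HT-29 lay above them. With CoCl2 the log2 fold change was -0.06 in Caco-2 (95% interval -0.22 to 0.09) and -0.06 in HT-29 (-0.17 to 0.06). With OD it was 0.03 (-0.12 to 0.19) and 0.10 (-0.01 to 0.20) in the same order. Both OD values turned below 0 with library size alone, at -0.12 and -0.04, and with that scaling ARNT passed as lower with CoCl2, at -0.38 in Caco-2 and -0.69 in HT-29. With upper quartile scaling these were -0.17 (edgeR FDR 0.0497) and -0.29 (edgeR FDR 2.04e-05), and in HT-29 ARNT also passed in 1 fit of all 18 libraries (-0.17, edgeR FDR 0.0249) and with limma on the log2 table (-0.13, FDR 0.0130). ARNT2 had 0 counts in all 9 HT-29 libraries and 0 to 4 counts in Caco-2 libraries, and it entered no test.

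CITED2 had the highest log2 fold change of the 8 genes in Caco-2. It stood at 41.0, 38.4 and 38.8 CPM in Caco-2 controls, 178.7, 159.4 and 162.3 CPM with CoCl2 and 78.4, 78.5 and 81.4 CPM with OD. The log2 fold change was 2.08 with CoCl2 (SE 0.08, edgeR FDR 5.50e-17) and 1.01 with OD (SE 0.08, edgeR FDR 1.76e-10). In HT-29 it stood at 10.3, 11.5 and 8.7 CPM in controls, 17.1, 14.7 and 16.2 CPM with CoCl2 and 6.8, 7.2 and 7.7 CPM with OD. There it rose with CoCl2 by 0.67 (SE 0.11, edgeR FDR 2.30e-06), a value of 0.43 with upper quartile scaling and a call lost with library size alone (0.04, edgeR FDR 0.758), and with OD its log2 fold change was -0.47 (SE 0.11, edgeR FDR 0.000703).

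EP300 and CREBBP moved in opposite directions under OD in the 2 lines. EP300 stood at 176.7, 182.2 and 178.0 CPM in Caco-2 controls, 162.5, 165.4 and 171.0 CPM with CoCl2 and 227.3, 222.1 and 224.7 CPM with OD. CREBBP stood at 129.5, 128.0 and 128.2 CPM, 107.2, 99.4 and 108.6 CPM, and 194.9, 204.1 and 198.5 CPM in the same groups. Both were thus highest with OD in Caco-2, with log2 fold changes of 0.33 (SE 0.07, edgeR FDR 0.000278) and 0.63 (SE 0.07, edgeR FDR 6.43e-08), and EP300 was at 0.17 with library size alone. With CoCl2 in Caco-2, CREBBP fell by 0.29 on the log2 scale (SE 0.07, edgeR FDR 0.000919), and by 0.61 with library size alone. EP300 was at -0.11 (95% interval -0.25 to 0.03, edgeR FDR 0.177), and it passed as lower with library size alone (-0.43), upper quartile scaling (-0.21, edgeR FDR 0.00728) and limma on the log2 table (-0.14, FDR 0.0488).

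In HT-29 the order was reversed. EP300 stood at 118.1, 119.3 and 112.7 CPM in controls, 167.8, 159.1 and 154.5 CPM with CoCl2 and 92.1, 93.8 and 88.4 CPM with OD. CREBBP stood at 121.3, 125.2 and 113.3 CPM, 187.5, 195.8 and 182.2 CPM, and 95.1, 90.5 and 87.4 CPM. No 2 of these groups overlapped for either gene. With OD the log2 fold changes were -0.35 for EP300 (SE 0.05, edgeR FDR 6.89e-07) and -0.40 for CREBBP (SE 0.05, edgeR FDR 1.97e-07). With CoCl2 they were 0.46 (SE 0.05, edgeR FDR 2.47e-09) and 0.65 (SE 0.05, edgeR FDR 4.82e-12), but with library size alone EP300 turned to -0.17 (edgeR FDR 0.00233) and CREBBP was at 0.02 (edgeR FDR 0.688). Upper quartile scaling gave 0.22 and 0.42.

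**Figure D1:**
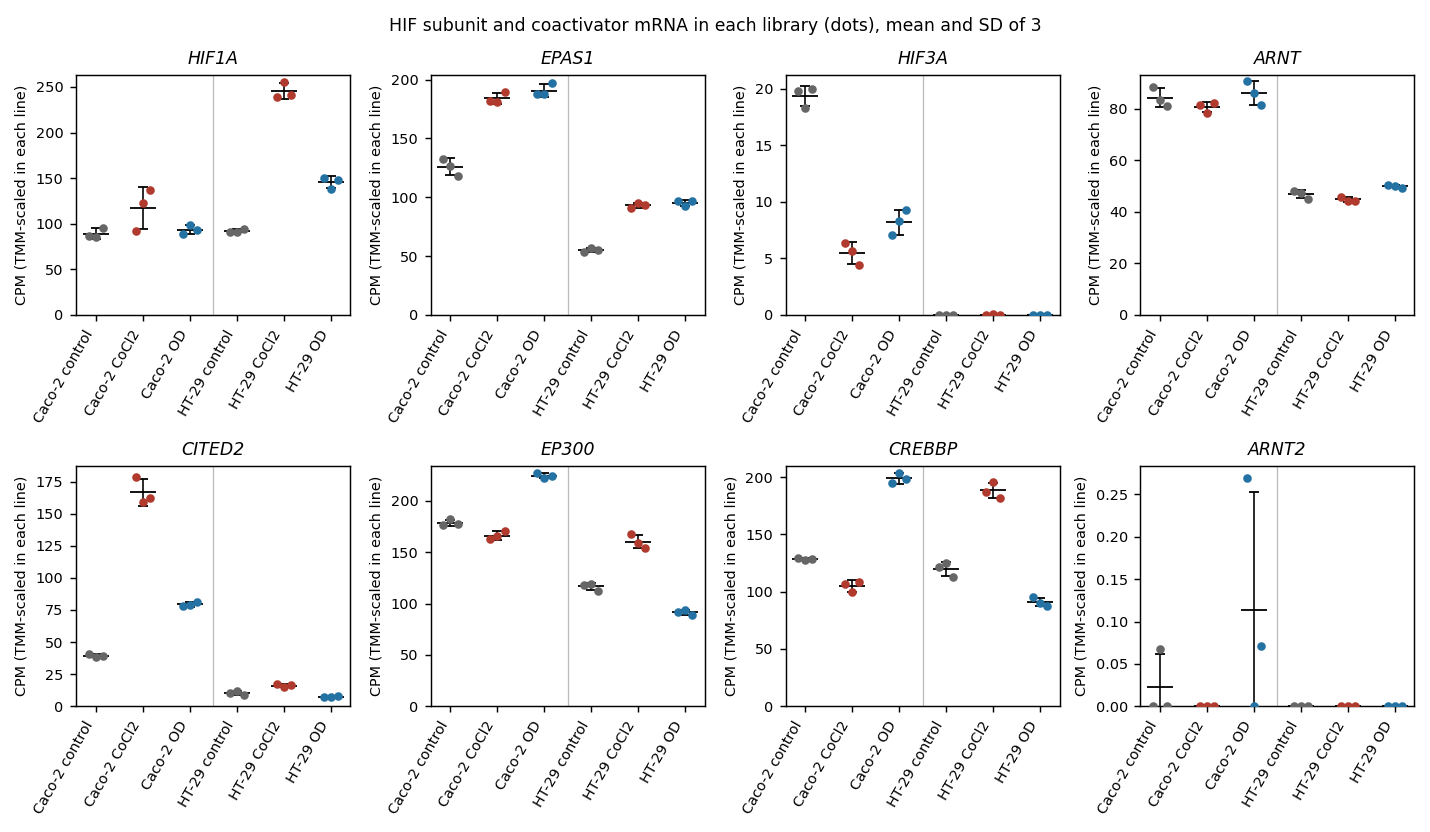
Level of each gene in CPM (vertical axis, from 0, TMM-scaled in each line) in the 3 control, 3 CoCl2 and 3 OD libraries of Caco-2 and HT-29; dots are libraries, and bars show the mean and SD. EPAS1 is higher in every treated library than in the controls of its line, HIF3A is near 0 in HT-29, and the 3 OD libraries of EP300 and CREBBP lie above the controls in Caco-2 and below them in HT-29.

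**Figure D2:**
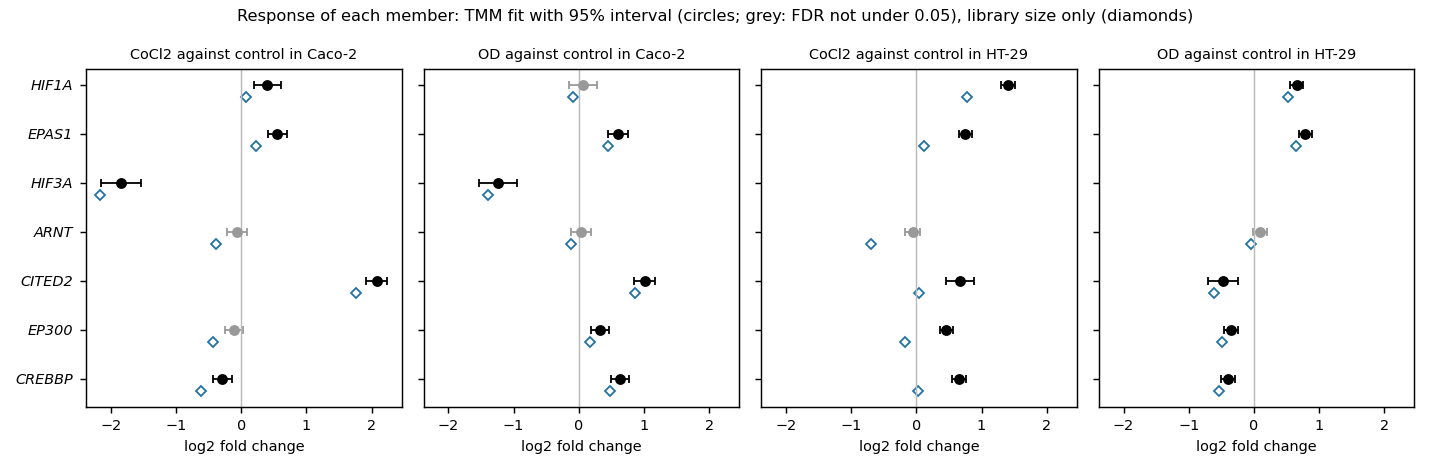
Log2 fold change against control (horizontal axis) of the 7 genes tested in Caco-2 and the 6 tested in HT-29; circles give the fit with TMM scaling and its 95% interval (grey where the FDR was not under 0.05) and diamonds the fit with library size only. Under CoCl2 in HT-29 the diamonds lie furthest from the circles, with EP300 at 0.46 and -0.17.

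The count of the genes that passed was read against all genes. With CoCl2 in Caco-2, 3 of 7 tested members were higher and 2 lower, against 31.6% and 33.1% of all genes, and 2 also had an absolute log2 fold change over 1 (CITED2 and HIF3A), against 23.4%. With OD in Caco-2, 4 were higher and 1 lower (25.7% and 24.7% of all genes), and 2 were past that fold (11.7%). With CoCl2 in HT-29, 5 of 6 were higher and 0 lower (40.7% and 42.2%), and 1, HIF1A, was past that fold (41.3%). With OD in HT-29, 2 were higher and 3 lower (34.7% and 34%), and 0 were past it (17.1%). Library size alone changed these splits. Under CoCl2 it gave 2 members up and 4 down in Caco-2, beside 2894 and 8017 of all genes. Under CoCl2 in HT-29 it gave 2 members up and 2 down with 0 past the fold, beside 3302 and 10175 of all genes. Under OD all genes split into 2729 up and 5656 down in Caco-2, and the HT-29 split was 4326 and 6766. For OD in Caco-2 the members kept 4 and 1, with 1 past the fold, and upper quartile scaling gave 3102 genes higher and 5139 lower. With 6 or 7 members tested, these counts are a description.

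Both agents were then compared with each other. EPAS1 did not pass between CoCl2 and OD, at -0.05 in Caco-2 (95% interval -0.20 to 0.10) and -0.04 in HT-29 (-0.14 to 0.06), though with library size alone it was lower with CoCl2 in both lines (-0.22 and -0.53), and in HT-29 also with upper quartile scaling (-0.23, edgeR FDR 0.000107) and limma on the log2 table (-0.097, FDR 0.0499). CITED2 was higher with CoCl2 by 1.07 (SE 0.07, edgeR FDR 3.18e-11) in Caco-2 and 1.14 (SE 0.11, edgeR FDR 7.27e-10) in HT-29. HIF1A was higher with CoCl2 by 0.75 in HT-29 (SE 0.05, edgeR FDR 1.13e-13). With library size alone the HT-29 values were 0.65 for CITED2 and 0.25 for HIF1A. In Caco-2 its difference of 0.33 (edgeR FDR 0.00888) lost its call without CoCl2 replicate 3 (0.20, edgeR FDR 0.118) and with library size alone (0.16, edgeR FDR 0.209).

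HIF3A was lower with CoCl2 than with OD in Caco-2, at -0.60 (SE 0.16, edgeR FDR 0.00300), or -0.26 with limma on the log2 table. EP300 and CREBBP were lower with CoCl2 than with OD in Caco-2 (-0.43 and -0.92) and higher in HT-29 (0.81 and 1.05, or 0.31 and 0.55 with library size alone). ARNT was at -0.09 in Caco-2, where it passed with library size alone (-0.26, edgeR FDR 0.00481). It passed in HT-29 at -0.15 (edgeR FDR 0.0130), a call lost with DESeq2 (FDR 0.0882). That value was -0.65 with library size alone, -0.34 with upper quartile scaling and -0.25 in 1 fit of all 18 libraries. In Caco-2, 2 of 7 members were higher with CoCl2 and 3 lower, against 24.4% and 25.2% of all genes, and 1 was past the fold threshold (11.7%). In HT-29, 4 of 6 were higher and 1 lower (37.1% and 40.6%), and 2 were past it (29.9%). With library size alone the Caco-2 split was 1 member up and 5 down, beside 2507 and 5811 of all genes. The HT-29 split was then 4 and 2 with 0 past the fold, beside 2831 and 9939 of all genes, or 4636 and 7666 with upper quartile scaling.

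The response itself was compared between the lines, as the HT-29 log2 fold change minus that of Caco-2. These values come from 1 fit of all 18 libraries, so they are not exactly the differences of the fold changes given above. CITED2 responded less in HT-29 to CoCl2 (-1.52, SE 0.12, edgeR FDR 2.53e-12). For OD its difference was -1.50 (SE 0.13, edgeR FDR 1.99e-11). There its direction was opposite, at 1.01 in Caco-2 and -0.47 in HT-29 in the separate fits. HIF1A responded more in HT-29 to both agents (0.90 and 0.57, SE 0.12 each, edgeR FDR 1.18e-07 and 0.000219). EP300 and CREBBP had higher responses in HT-29 to CoCl2 (0.46 and 0.84) and lower ones to OD (-0.70 and -1.05). The EP300 value for CoCl2 was 0.25 with library size alone. EPAS1 did not pass for either agent, at 0.09 (95% interval -0.08 to 0.27) and 0.17, and neither did ARNT, at -0.10 and 0.05, though for CoCl2 ARNT passed with library size alone (-0.31, edgeR FDR 0.00409). EPAS1 passed in the CoCl2 difference with DESeq2 (0.20, FDR 0.0221) but was at -0.11 with library size alone. In the OD difference it passed with upper quartile scaling (0.24), library size alone (0.21) and DESeq2 (0.19). For CoCl2, 3 of 7 members were higher and 1 lower, against 21.1% and 28.6% of all genes, and 1 was past the fold threshold (21.6%). With library size alone these were 3 and 2 members, and 2674 higher and 6564 lower over all genes. For OD, 1 was higher and 3 were lower (20.9% and 22%), and 2 were past it (15.2%). Each of these counts keeps HIF3A among the 7 tested, where it did not pass and rests on HT-29 libraries at or near 0.

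**Figure D3:**
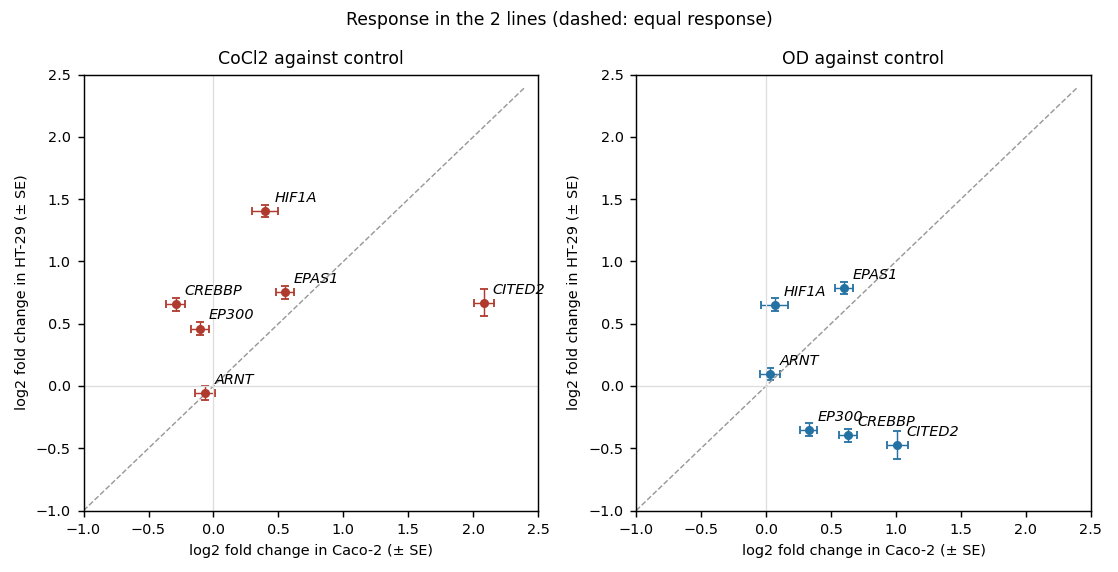
Log2 fold change against control in Caco-2 (horizontal axis) and HT-29 (vertical axis) with SE bars for the 6 genes tested in both lines, CoCl2 on the left and OD on the right; the dashed line marks an equal response. EPAS1 and ARNT lie near the line, HIF1A above it and CITED2 below it. The points are from the separate fit of each cell line.

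Levels of the genes were compared per length, as RPKM (CPM per kilobase of gene length) on 1 scaling over all 18 libraries, with gene lengths derived from the log2 table. EPAS1, ARNT, CITED2 and EP300 were lower in HT-29 controls than in Caco-2 controls, with log2 differences of -1.10, -0.76, -1.88 and -0.53 (SE 0.06, 0.06, 0.09 and 0.06). HIF1A and CREBBP did not pass, at 0.14 (95% interval -0.03 to 0.32) and -0.01 (-0.13 to 0.11), though HIF1A passed without Caco-2 CoCl2 replicate 1 (0.15, edgeR FDR 0.0308). With HIF3A, 5 of 7 members were lower and 0 higher in HT-29 controls, against 39.6% and 39.5% of all genes, and 3 were past the fold threshold (45.8%). In Caco-2 controls, HIF1A was at 16.5, 16.4 and 18.4 RPKM and EPAS1 at 17.97, 17.1 and 16.1 RPKM, so these neighbours overlapped. In HT-29 controls, HIF1A was at 18.5, 18.6 and 19.5 RPKM and EPAS1 at 7.63, 8.20 and 8.06 RPKM, with no overlap.

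Ratios of members within a library do not depend on the scaling. The per-length ratio of EPAS1 to HIF1A was 1.00 ± 0.113 in Caco-2 controls and 1.45 ± 0.0906 with OD (SD, n = 3 each). With CoCl2 in Caco-2 it overlapped the controls, at 1.14 ± 0.224. In HT-29 it was 0.422 ± 0.0158 in control, 0.268 ± 0.00559 in CoCl2 and 0.463 ± 0.00814 in OD libraries. The ratio of ARNT to the sum of HIF1A and EPAS1 was lower in every treated library than in every control of its line. In Caco-2 it went from 0.379 to 0.263 with CoCl2 and 0.303 with OD, and in HT-29 from 0.284 to 0.115 and 0.187. The ratio of HIF3A to HIF1A in Caco-2 went from 0.133 to 0.0300 and 0.0536.

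The ratio of CITED2 to the sum of EP300 and CREBBP was 0.651 in control, 3.10 in CoCl2 and 0.966 in OD libraries of Caco-2. In HT-29 it was 0.223, 0.241 and 0.206, and the groups overlapped. The ratio of CREBBP to EP300 went from 0.543 to 0.477 (CoCl2) and 0.670 (OD) for Caco-2, and from 0.776 to 0.888 and 0.752 in HT-29, where OD overlapped the controls. The exact permutation test of 3 against 3 libraries, two-sided, cannot go below p = 0.1, and none of the 18 ratio tests could pass (lowest Benjamini-Hochberg value 0.129).

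**Figure D4:**
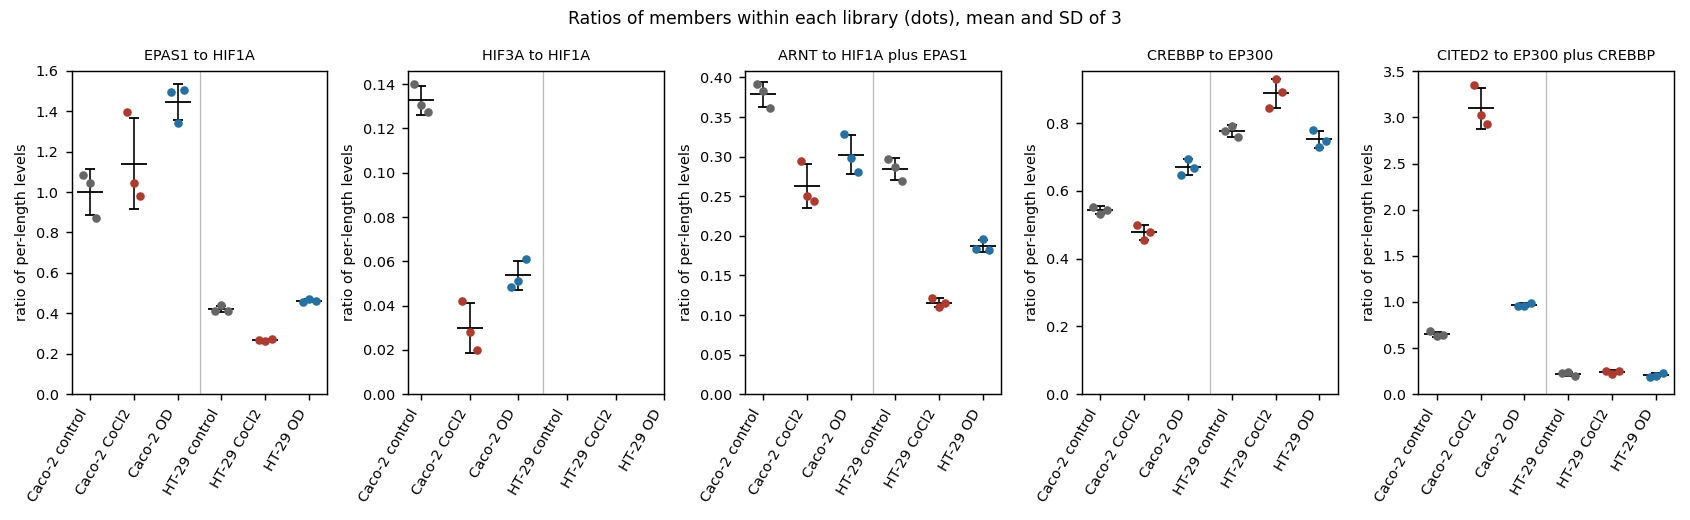
Per-length ratios of members within each library (vertical axes, from 0), by group; dots are libraries, and bars show the mean and SD of 3. HIF3A to HIF1A is not drawn for HT-29, where HIF3A was at 0 to 1 count; ARNT to HIF1A plus EPAS1 is lower in all treated libraries than in the controls of their line.

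Other genes of the pathway were counted by list. Of HIF target genes, all 14 tested in Caco-2 passed as higher for each agent. In HT-29 all 15 did so for CoCl2 and 13 of 15 for OD. This list was chosen with earlier results known. It holds genes that the study reported as responding to both agents in differentiated Caco-2, so the Caco-2 count was partly known beforehand. The medians of this list on the log2 scale were 3.11 (CoCl2) and 2.41 (OD) for Caco-2 and 3.18 and 1.01 for HT-29, beside medians of all genes from -0.03 to 0.0057. Of 10 genes for hydroxylases and degradation, 4 were higher and 3 lower with CoCl2 in Caco-2, 5 and 2 with OD, and in HT-29 7 and 3 with CoCl2 and 5 and 2 with OD. EGLN1, a prolyl hydroxylase, had the highest value of that list in Caco-2, 2.95 with CoCl2 and 2.24 with OD. Of 9 other coactivators tested, 3 were higher and 5 lower with CoCl2 in Caco-2 and 1 and 1 with OD, and in HT-29 4 and 5 with CoCl2 and 3 and 3 with OD. Of the other bHLH-PAS factors, relatives of the HIF subunits, 1 was higher and 2 lower of 7 with CoCl2 in Caco-2, and 2 and 1 with OD. In HT-29, 1 was higher and 5 lower of 8 with CoCl2, and 3 and 3 with OD. Of all genes in Caco-2, 31.6% were higher and 33.1% lower with CoCl2, and 25.7% and 24.7% with OD. The HT-29 shares were 40.7% and 42.2% with CoCl2 and 34.7% and 34% with OD. With so few genes in a list, these counts are a description. EGLN3 is counted among both the target genes and the hydroxylases.

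The genes with the pattern most like each member were found by Pearson's r of log2 CPM over the 18 libraries, each line centred on its mean, which share treatments. They were LAMP2 for HIF1A (0.983), NFE2L1 for EPAS1 (0.981), GADD45A for CITED2 (0.969), C2CD3 for EP300 (0.978), PPP4R3B for CREBBP (0.974) and EMP2 for ARNT (0.914). WEE2 was the closest to HIF3A (0.971), which varied in Caco-2 alone. EP300 was the second closest gene to CREBBP (0.966).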

How the data were processed

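The 8 members and all gene lists were chosen with earlier results of these data known. The raw read counts per gene were deposited by the authors, with a second deposited table of log2 values, found here to hold log2 of RPKM plus 1 with TMM scaling in each line. Per the labels and the submitters' processing notes, reads were single-end, trimmed with cutadapt 2.10 and aligned with STAR 2.7.5b to GRCh38.p13. The counting tool and its use of strand were not given in the sources used here. The 18 miRNA libraries were not used.

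Counts were tested with edgeR 4.0.16 (R 4.3.3; quasi-likelihood F test, two-sided, TMM scaling, filterByExpr), over the 9 libraries of a line, leaving 16034 genes in Caco-2 and 15812 in HT-29. Line differences used all 18 libraries and 17921 genes. FDR is Benjamini-Hochberg over all genes tested, a gene passed at an FDR under 0.05, and the fold threshold was an absolute log2 fold change over 1. The study used DESeq2, run here as an alternative (1.42.0), as was limma 3.58.1 on the log2 table. Named genes were the members, the highest or lowest gene of a list and the most alike genes. HIF1A-AS3 is from the antisense list, of which 3 of 7 names were in the table and 1 was tested. Scripts were tested on simulated counts. Chi-square per degree of freedom between replicates of a group was 1.96 to 12.6, so no 2 replicates of a group were copies of each other. This cannot tell separate cultures from separate libraries of the same culture. To look for pairing, the mean of its group was subtracted from each gene. What remained correlated between same-numbered libraries of different treatments at -0.0554 to 0.0676 in Caco-2 and -0.0369 to 0.0245 in HT-29. The replicate numbers thus showed no pairing. The 95% intervals are from the edgeR fit and cover the spread between libraries, while floors (3 counts) cover counting error only.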

Additional observations from a re-analysis of the deposited data

Results flagged for a closer look

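For 4 genes the response to an agent differed between HT-29 and Caco-2 by the test of the difference itself (edgeR interaction over 18 libraries), given as the HT-29 minus the Caco-2 log2 fold change. For HIF1A it was 0.90 for CoCl2 (FDR 1.18e-07) and 0.57 for OD (FDR 0.000219). For CITED2 it was -1.52 (FDR 2.53e-12) and -1.50 (FDR 1.99e-11). For EP300 it was 0.46 for CoCl2 (FDR 1.25e-05) and -0.70 for OD (FDR 1.05e-08), and for CREBBP 0.84 (FDR 4.52e-10) and -1.05 (FDR 4.48e-12). Line and culture state cannot be told apart in these values.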

How the results depend on the processing

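Of the alternative values for single members, 1140 kept direction and side of the threshold, 20 passed newly, 6 no longer passed and 13 changed sign; the cause was not tested. Those that changed sign were, for OD in Caco-2, ARNT with library size only (-0.12), upper quartile scaling (-0.075) and limma on the log2 table (-0.0029), and HIF1A with library size only (-0.085) and upper quartile scaling (-0.040). For OD in HT-29, ARNT was at -0.040 with library size only. For CoCl2 in HT-29, EP300 was at -0.17 with library size only. In the CoCl2 line difference, ARNT was at 0.0026 with DESeq2 size factors and 0.0027 with the DESeq2 test, and EPAS1 at -0.11 with library size only. Between control groups, CREBBP was at 0.011 with no filter. Leaving out 1 library at a time, ARNT for OD in Caco-2 ranged from -0.0072 (without OD replicate 1) to 0.078, and CREBBP between controls from -0.037 to 0.029 (the latter without HT-29 control replicate 3).

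With the added fold threshold, the members passing were 2, 2, 1 and 0 for CoCl2 and OD against control in Caco-2 and then HT-29, 1 and 2 for CoCl2 against OD in Caco-2 and HT-29, 1 and 2 for the CoCl2 and OD line differences and 3 between controls. Under all other alternatives the counts at an FDR under 0.05, both directions together, stayed within 1.5 times the main count. Their direction did not always stay: library size alone gave 2 higher and 2 lower for CoCl2 in HT-29, in place of 5 and 0. With library size alone and the fold threshold, 1 member passed for OD in Caco-2. For CoCl2 in HT-29 and for CoCl2 against OD in HT-29 it was 0, and the other comparisons kept their count. With a replicate block the counts were the main ones: 5 in each comparison within a line and between controls, and 4 in each line difference. limma was not run between the controls, since the log2 table was normalised per line. Leaving out single libraries was added for the ratios after seeing the data, and 126 ratio values moved by less than the spread.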
